A study of Mus musculus with 12 samples.

Results

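Copy number along mouse chromosome 17 was measured with the 1653 array probes that lie on this chromosome outside 2 loci, at 17.4 to 21.8 Mb and at 30.3 to 31.3 Mb of genome build mm9, which held 62 and 22 further probes and were left out. The members were taken by position alone, from 42404 probes on the array, of which 40726 were autosomal. They ran from position 3023355 to 95172788, with a median spacing of 18.8 kb, and 1443 of them carried one of 865 gene names. The left-out loci divide the members into a proximal part of 176 probes (3023355 to 17237022), a middle part of 332 probes (21800017 to 30240364) and a distal part of 1145 probes (31378665 to 95172788).

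DNA came from cultured cells of malignant peripheral nerve sheath tumours, cancers of the Schwann cell lineage, that arose in P0-GGFβ3 mice. In these mice the P0 promoter, which is active in Schwann cells, drives a neuregulin-1 isoform. The strain of 7 tumours (A394, A390, A382, A292, A202, 231 Trig and A18) is given as C57BL/6J x SJL/J, called the mixed background here, and that of 4 (B76, B86, B91 and B96) as C57BL/6J. Every array set one tumour against DNA of non-neoplastic Schwann cells from wild-type mice whose strain is given as C57BL/6J. Tumour cells were started with forskolin and neuregulin and then grown without them, while the Schwann cells were kept in both. A382 has 2 arrays, from passages 8 and 9, and counts once, as their average. A18, 231 Trig, B86 and A202 were on slide 1, which another scanner read than slides 2 and 3. No array compared reference with reference, so the tests below take the ratio against 0 and leave out the spread of the reference.

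Array comparative genomic hybridisation reads the ratio of tumour to reference DNA at each probe, so a chromosome carried in extra copies shifts all of its probes together, and a deletion or amplification shifts only the probes inside it. Chromosome 17 of the mouse carries the t-complex at its proximal end and the H2 complex, the major histocompatibility complex of the mouse, further along. It also carries Cdkn1a, which encodes the cell cycle inhibitor p21, the tumour suppressor Tsc2 and the Ras exchange factor Sos1. Inbred strains differ in their H2 haplotypes, and a base difference under a probe can lower its signal without a change in copy number.

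Some results below concern single probes. Sequences of a few of these are given here as the scanner files list them, in build mm9. G and C are in capitals because base composition bears on hybridisation and enters an alternative below. The files give no strand, so each sequence is printed as listed for the probe. The first pair flanks the position where the profiles of 6 tumours step down, the next is the lowest gene of the chromosome, the AK196339 and Treml1 probes are among its highest genes, and the last 4 differ sharply between tumours.
AK049862 probe, chr17:14403003-14403062: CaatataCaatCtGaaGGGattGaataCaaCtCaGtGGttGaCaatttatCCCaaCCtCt
Smoc2 probe, chr17:14442846-14442905: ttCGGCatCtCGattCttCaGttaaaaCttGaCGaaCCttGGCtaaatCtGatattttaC
H2-Eb2 probe, chr17:34467746-34467805: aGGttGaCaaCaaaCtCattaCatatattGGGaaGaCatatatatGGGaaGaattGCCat
AK196339 probe, chr17:46811469-46811526: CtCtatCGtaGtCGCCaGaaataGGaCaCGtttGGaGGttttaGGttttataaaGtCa
Treml1 probe, chr17:48501694-48501753: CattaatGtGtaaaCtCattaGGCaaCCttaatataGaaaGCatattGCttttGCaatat
H2-T3 probe, chr17:36326541-36326591: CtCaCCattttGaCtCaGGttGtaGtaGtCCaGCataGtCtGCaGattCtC
A_53_P115484, chr17:36365450-36365509: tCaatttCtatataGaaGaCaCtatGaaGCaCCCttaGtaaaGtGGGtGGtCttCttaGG
A_53_P156922, chr17:36815450-36815509: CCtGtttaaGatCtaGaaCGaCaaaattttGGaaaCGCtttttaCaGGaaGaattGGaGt
A_53_P101324, chr17:56649027-56649083: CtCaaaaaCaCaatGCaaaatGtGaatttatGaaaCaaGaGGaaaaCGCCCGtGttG

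Levels are log2 ratios of tumour over reference after each array was centred on its autosomal median. On this scale 1 extra copy of a diploid pair in every cell is 0.58, and 1 extra copy in every cell of a tetraploid culture is 0.32.

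The first comparison asks whether chromosome 17 as a whole stood apart from the reference. Its median was above 0 in 6 of 11 tumours. On the mixed background it was 0.27 in A18, -0.11 in 231 Trig, -0.0075 in A202, 0.26 in A390, 0.16 in A292, -0.072 in A382 and 0.36 in A394. On C57BL/6J it was -0.0998 in B86, 0.26 in B91, -0.027 in B96 and 0.23 in B76. High and low tumours occurred on both backgrounds, and no tumour lay between -0.0075 and 0.16. In the highest tumour, A394, 93.4% of the member probes were above 0, and in 231 Trig 31.1% were. Among the 19 autosomes of the same tumour, chromosome 17 ranked 2 from the top in A390 and A394, 18 from the top in 231 Trig and 15 from the top in B86. The passages of A382 gave -0.074 and -0.068. The mean over tumours was 0.11 ± 0.18 (SD, n = 11), and it did not pass the exact two-sided sign-flip permutation test (p = 0.0645, adjusted p = 0.102 over 19 autosomes). The spread between tumours ranked 5 from the widest among the autosomes.

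Backgrounds overlapped throughout. The mixed tumours had a mean of 0.12 ± 0.19 (SD, n = 7) and the C57BL/6J tumours 0.092 ± 0.18 (SD, n = 4), a difference of 0.032 with an adjusted p of 0.850 by the exact two-sided permutation test over all 330 splits. Within slides the difference was 0.15 on slide 1, -0.15 on slide 2 and 0.048 on slide 3. It changed sign when B86 (-0.032), B96 (-0.0075) or A394 (-0.0080) was left out. None of 78 windows of 1 Mb differed between the backgrounds by limma at an adjusted p under 0.05 (0% of 2062 windows of all autosomes did), and 1 had an unadjusted p under 0.05. None of the 865 genes did either, against 0.015% of 19985 genes tested, and 22 had an unadjusted p under 0.05. Without A292, H2-T3 of the H2 complex (mixed minus C57BL/6J, 1.25) and its neighbour AK153910 (1.09) passed (adjusted p = 0.0157 each).

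**Figure D1:**
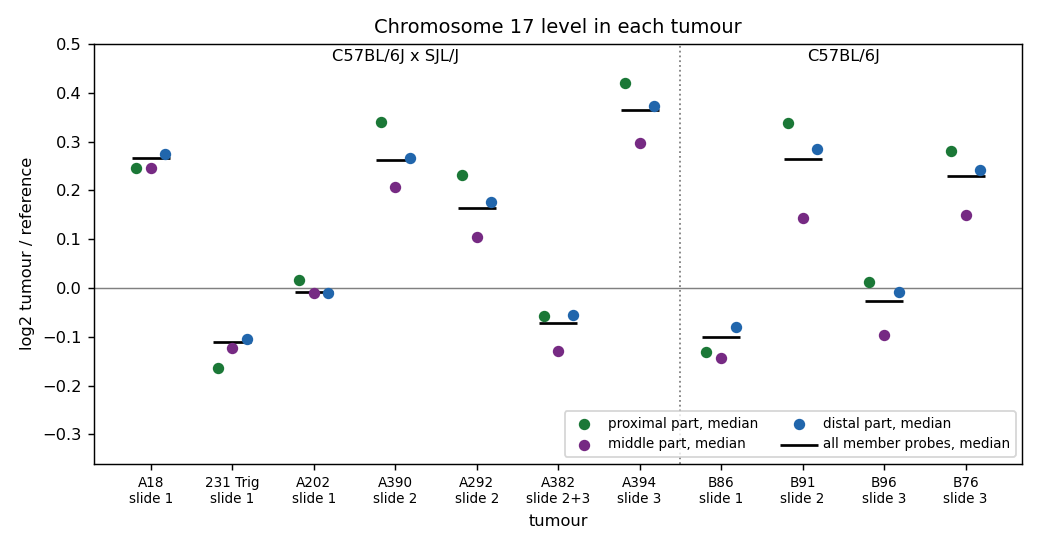
Median log2 ratio of tumour over reference (vertical axis) on chromosome 17 in each of 11 tumours, with the background above and the slide below; dots are the proximal, middle and distal parts and the black bar is the median of all 1653 probes. In all 6 tumours sit at 0.16 or higher and the other 5 at or below -0.0075, on both backgrounds.

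Each channel was also read alone, relative to the array and adjusted for probe GC content. In the tumour channel the chromosome 17 median ran from 0.015 in 231 Trig and 0.019 in B86 to 0.51 in A394. The reference channel hardly moved between arrays, at 0.16 ± 0.0082 (SD, n = 12), but it was above that of the other 18 autosomes, which ran from -0.53 to 0.13. Its part in the ratio was not tested.

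The second comparison asks whether the level ran along the whole chromosome or changed within it. A high tumour was high in all 3 parts: A394 had 0.42, 0.30 and 0.37 in the proximal, middle and distal parts, and A18 had 0.25, 0.25 and 0.27. A low tumour was low in all 3, as 231 Trig with -0.16, -0.12 and -0.11. Over the tumours the proximal part had 0.14 ± 0.21, above 0 in 8 of 11, the middle part 0.059 ± 0.16, above 0 in 6, and the distal part 0.12 ± 0.18, above 0 in 6 (SD, n = 11 each). None passed the exact two-sided sign-flip permutation test, with adjusted p of 0.0806, 0.255 and 0.0806 over the 3 parts. The proximal and distal parts passed with centring on the mode (0.17 and 0.15, adjusted p = 0.0454 each), and also when 231 Trig (0.17 and 0.15, 0.0469 each) or B86 (0.17 and 0.14, 0.0498 each) was left out.

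Within tumours, both ends lay above the middle part. The proximal part exceeded the middle in 9 of 11 tumours, by 0.080 ± 0.072 (SD, n = 11), with the lowest difference of -0.040 in 231 Trig and the highest of 0.20 in B91 (exact sign-flip permutation test, adjusted p = 0.0146 over 3 pairs). The distal part exceeded the middle in 10 of 11 tumours, by 0.064 ± 0.039 (SD, n = 11), from -0.00065 in A202 to 0.14 in B91 (adjusted p = 0.00586, same test). The proximal and distal parts differed by 0.016 ± 0.045, which did not pass (adjusted p = 0.262).

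The slide moved with these differences. On slide 1 the proximal minus middle difference ran from -0.040 to 0.025 in 4 tumours, and on slides 2 and 3 from 0.072 to 0.20 in 7, with no overlap. The distal minus middle difference ran from -0.00065 to 0.062 on slide 1 and from 0.060 to 0.14 on slides 2 and 3. Without slide 1 the mean differences were 0.13 and 0.086, and proximal minus distal then passed at 0.041 (adjusted p = 0.0312). The reference channel was also uneven, with medians of 0.12 ± 0.022 in the proximal, 0.26 ± 0.022 in the middle and 0.15 ± 0.012 in the distal part (SD, n = 12 arrays), and the tumour channel had 0.21, 0.28 and 0.24. Both channels were already adjusted for probe GC content, unlike the ratios above. Probe GC content averaged 36.1%, 37.9% and 36.7% in the same order. After adjustment for GC the differences from the middle part were 0.072 and 0.060, with adjusted p of 0.0117 and 0.00293. What part the reference, the slide or base composition has in them was not tested.

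**Figure D2:**
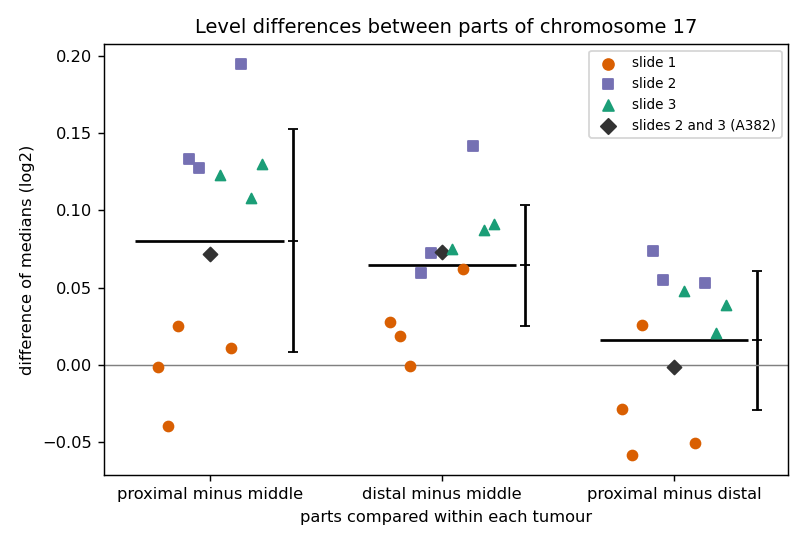
Difference of medians (log2, vertical axis) between parts of chromosome 17 within each of 11 tumours, with the slide given by colour and shape; the long bar is the mean and the whisker its SD. The slide 1 tumours lie below the others in proximal minus middle.

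Segmentation, which splits each profile into stretches of equal level, found no break in the 4 tumours of slide 1 and 2 breaks in each of the 7 others, 14 in all. A18 was a single segment at 0.26, 231 Trig at -0.13, B86 at -0.11 and A202 at -0.013. In A390, B91, A292, A382, B76 and A394 the first break fell in the same gap, between the AK049862 probe, which ends at 14403062, and the Smoc2 probe, which starts at 14442846. Smoc2 encodes a secreted matrix-associated calcium-binding protein. In B96 it fell nearer the proximal end.

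The second break lay in the H2 complex in all 7. It ran from between Nfkbil1 and Atp6v1g2 in B76 (35370990 to 35373677) to a position past AY211078 in A382 (36419885 to 36430425). A390 broke past Ddx39b, A394 between the probes of LOC547349, A292 between Pou5f1, a gene of pluripotent cells, and Tcf19, and B91 and B96 past AK153910.

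Steps were small and alike in high and low tumours. The 3 segments had means of 0.39, 0.20 and 0.29 in A390, of 0.37, 0.17 and 0.31 in B91, of 0.27, 0.11 and 0.19 in A292, of 0.30, 0.17 and 0.26 in B76 and of 0.43, 0.30 and 0.39 in A394. In A382 they were -0.0061, -0.13 and -0.041, and in B96 0.054, -0.078 and 0.0097. The first step thus ran from -0.20 in B91 to -0.12 in A382, and the second from 0.084 to 0.14, with no step reaching 0.2. The number of breaks depended on the setting, with 46 at a penalty of 20 noise variances per break, 2 at 80, and 8 after adjustment for probe GC content, where A382, B76 and A394 became single segments.

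When each tumour was set against the median of the others, with its own level removed, 5 tumours had no break. The 12 breaks of the other 6 bounded segments of -0.11 to 0.061, none past 0.2 in size. Across the 78 windows, 2 tumours of slides 2 and 3 correlated at 0.63 to 0.88 (Pearson, 21 pairs), those of slide 1 at 0.49 to 0.74 (6 pairs), and pairs across them at 0.21 to 0.61. All of them share the reference DNA, and windows correlated with probe GC content at -0.49 to -0.23 on slides 2 and 3 and at -0.18 to 0.079 on slide 1.

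Segments with a mean of at least 0.2 were called gains, and those of at most -0.2 losses. A18 and A394 carried a gain along all member probes, B76 along 65.3%, A390 along 65.2%, B91 along 63.0% and A292 along 8.23%. The other 5 tumours had none, and no tumour had a loss. At a threshold of 0.1, 231 Trig and B86 were losses along 100% of the probes and A382 along 37.4%, and at a penalty of 20, 7 tumours had losses of 0.302% to 0.311% of the probes. At the threshold of 0.2, the stretch shared by most tumours was the proximal end, 3023355 to 14403062. Its 136 probes were in gain segments of 6 tumours (A18, A390, B91, A292, B76 and A394). That is 8.23% of the members, and 7.7% of autosomal probes were in gain segments in at least 6 tumours. From 36360213 to the end, 905 probes were in gain in A18, A390, B91, B76 and A394. In all 1041 member probes, 63.0%, were in gain in at least 5 tumours, against 10.7% of autosomal probes. From 14442846 to 35370990, 574 probes were in gain in A18 and A394 only, since the segments of A390, B91 and B76 lay at 0.17 to 0.20 there, just under the threshold. The distal segment of A292, at 0.19, also lay just under it. The largest number of tumours sharing a gain was 4 at a threshold of 0.3 and 6 at 0.1. At 0.1 these 6 tumours were in gain along 100% of the probes, so the proximal stretch was then not set apart.

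In windows of 1 Mb, 32 of 78 were higher than the reference by limma (adjusted p under 0.05, with the mean at 0.1 or more), and none was lower. This was 41.0% of the windows, beside 17.1% of 2062 windows on all autosomes. They comprised 5 of 13 proximal, 1 of 10 middle and 26 of 55 distal windows, with means of 0.13 to 0.35. The count was 49 without slide 1, and 21 without A18, 19 without A390, 20 without B91, 21 without A292 and 19 without A394.

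The highest was the window that starts at 9 Mb, with Pde10a, a cyclic nucleotide phosphodiesterase gene. Its level was 0.65 in A394, 0.56 in A390, 0.55 in B91, 0.52 in A18, 0.48 in B76, 0.45 in A292, 0.23 in A382, 0.18 in B96, 0.15 in A202, 0.096 in B86 and -0.0046 in 231 Trig, a mean of 0.35 ± 0.23 (SD, n = 11, limma adjusted p = 0.000412). Next came the window at 55 Mb with the sialyltransferase gene St6gal2, at 0.34 ± 0.21 (adjusted p = 0.000293). Windows at 40, 54, 55 and 89 Mb were above 0 in 11 of 11 tumours, which is 5.13% of the windows against 8.54% on all autosomes. The window at 89 Mb holds Lhcgr and Fshr, the receptors for luteinising and follicle-stimulating hormone, and the one at 54 Mb holds Slc5a7, a choline transporter gene. The lowest means were 0.020 at 15 Mb, with the Notch ligand Dll1, and 0.025 both at 30 Mb, on 3 probes, and at 35 Mb, in the H2 complex with C2, Ehmt2 and the Hspa1 heat shock genes. The mean window level correlated with the reference channel at -0.39 over 78 windows, whose part was not tested.

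**Figure D3:**
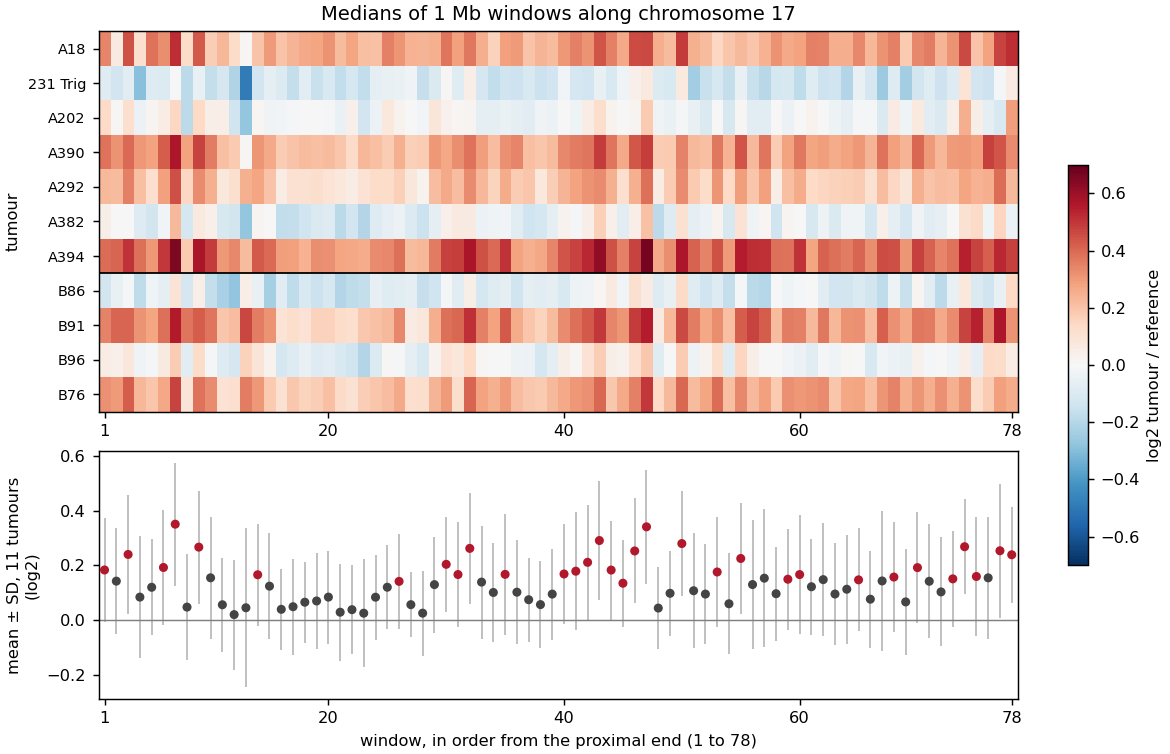
Upper panel, median log2 ratio of 78 windows of 1 Mb in order along chromosome 17 (horizontal axis) in each of 11 tumours, with the 4 C57BL/6J tumours under the line; lower panel, mean and SD over tumours, with the 32 windows past the threshold in red. The window at 9 Mb is the seventh column, the highest mean of the lower panel.

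Single genes were tested in the same way, on all 19985 autosomal gene names, with a size threshold of 0.2. On chromosome 17, 207 of 865 genes were higher (23.9%) and 43 were lower (4.97%). On all autosomes 18% were higher and 15.5% lower. The median gene of the chromosome was at 0.10, and the median of all genes at -0.0083. Of the 43 lower genes, 39 had surroundings, the median of the 20 nearest other probes, above 0, and 31 rested on a single probe. Of the 207 higher genes, 87 exceeded their surroundings by 0.2 or more and 116 rested on a single probe. With a running median of 5 probes, which removes isolated probe values, 140 were higher and 2 were lower.

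**Figure D4:**
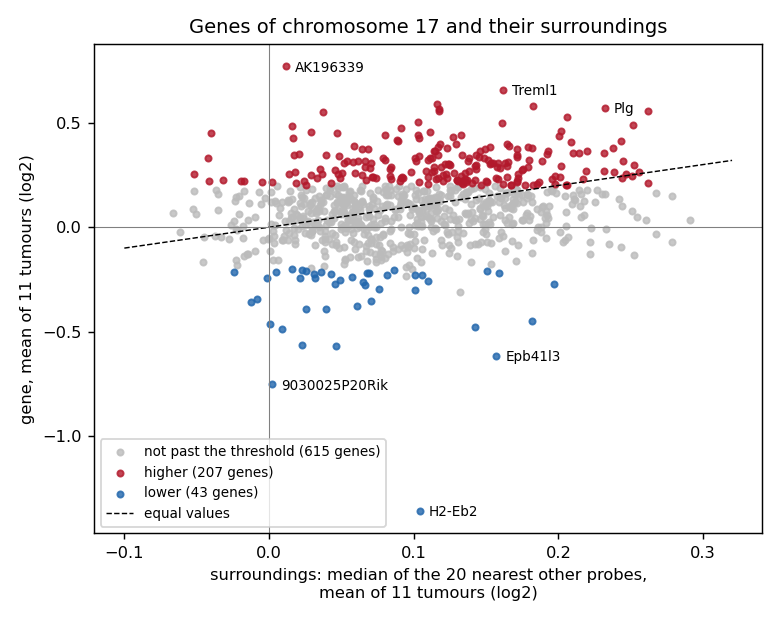
Mean log2 ratio of each of 865 genes (vertical axis) against the mean of its surroundings, the 20 nearest other probes (horizontal axis), over 11 tumours; colour gives the limma call and the dashed line equal values. Surroundings span -0.066 to 0.29, while genes span a far wider range on both sides.

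The lowest gene was H2-Eb2, which encodes a class II beta chain of the H2 complex. Its single probe was below 0 in all 11 tumours, at -0.97 in A18, -1.57 in 231 Trig, -0.66 in A202, -1.11 in A390, -1.64 in A292, -1.76 in A382, -1.49 in A394, -1.45 in B86, -0.95 in B91, -1.60 in B96 and -1.75 in B76. The backgrounds overlapped. Its mean was -1.36 ± 0.37 (SD, n = 11, limma adjusted p = 1.08e-08), while its surroundings were at 0.10, and the median of the 10 neighbouring probes ran from -0.075 to 0.42 over the tumours. The neighbouring class II genes H2-Eb1 (0.16), H2-Ea (0.20) and H2-Ab1 (0.0029) did not pass. Genes of the H2 complex include near-identical copies, between which a probe may not distinguish.

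Other genes of the complex are listed by role. Tap1, a subunit of the peptide transporter that loads class I molecules, fell to -0.57 ± 0.32 on a single probe, from -1.09 in 231 Trig to -0.093 in A18 (adjusted p = 3.4e-05), while its partner Tap2 was at 0.14 and did not pass. The non-classical class I genes H2-M11 (0.58 ± 0.25), H2-M10.5 (0.34 ± 0.17), H2-M1 (0.29 ± 0.14) and H2-T10 (0.22 ± 0.12) rose, each above 0 in at least 10 of 11 tumours. The cytokine gene Tnf was at 0.16, the complement gene C2 at 0.20 and the proteasome gene Psmb8 at 0.015, none past the threshold. In all 4 of the 24 measured genes of this list were higher, 2 were lower and 18 did not pass, with a median of 0.12. On the whole chromosome 23.9% of genes were higher and 4.97% lower, and on all autosomes 18% and 15.5%.

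At the proximal end, 6 of 8 measured genes of the t-complex list were higher and none was lower, with a median of 0.28 beside 0.10 over the genes of the chromosome and -0.0083 over all genes. Of all genes of the chromosome 23.9% were higher, and of those of all autosomes 18%. The median excess of these 8 genes over their surroundings was 0.11. Plg, the gene of plasminogen, had 0.39 in A202, a median of 0.60 and 0.82 in A394, and was above 0 in 11 of 11 tumours (0.57 ± 0.16, SD, n = 11, limma adjusted p = 7.38e-08). T, which encodes the mesoderm factor brachyury, was 0.063 in A202 and 0.61 in A394, with a median of 0.42 (0.36 ± 0.21, adjusted p = 9.21e-05). The chemokine receptor gene Ccr6 (0.34 ± 0.20), Pde10a (0.32 ± 0.30) and Tcte2 (0.24 ± 0.21) were also higher. Igf2r, the receptor that takes up insulin-like growth factor 2, was at -0.13 ± 0.25 and did not pass. The genes named here lie in the segment shared by 6 tumours at the gain threshold of 0.2.

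Of 22 measured genes of growth, Ras signalling and the cell cycle, 2 were higher, 1 was lower and 19 did not pass (median 0.052). The shares over the chromosome were 23.9% higher and 4.97% lower, and over all autosomes 18% and 15.5%. Rps6ka2, a kinase downstream of ERK, rose to 0.31 ± 0.19, above 0 in 11 of 11 tumours (adjusted p = 0.000183), and Prkd3, a protein kinase D gene, to 0.22 ± 0.22. The 2 probes of Rps6ka2 gave 0.16 and 0.48, with surroundings at 0.15. Under 1 of 21 alternatives Rps6ka2 lost the call, at 0.16. Mapk13, a p38 kinase gene, fell to -0.24 ± 0.13, from -0.45 in A382 to -0.031 in A202 (adjusted p = 0.00029). After adjustment for GC content it was at -0.19 and no longer reached the threshold. Mapk13 rested on a single probe, with surroundings at 0.022, and over all alternatives it ran from -0.28 to -0.022. Cdkn1a had -0.082 in 231 Trig, a median of 0.20 and 0.36 in A18, and its mean of 0.20 ± 0.14 lay just under the size threshold. It passed when 231 Trig (0.23), A202 (0.22) or B96 (0.21) was left out. Pim1 (-0.081), Ccnd3 (0.10), Vegfa (-0.14), Tsc2 (0.070), Epas1 (0.082) and Sos1 (0.031) did not pass.

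Of 9 measured genes of genome maintenance and chromatin, none was higher, where 23.9% of all genes of the chromosome were. Daxx, a histone chaperone gene, was lower at -0.21 ± 0.081 (adjusted p = 0.000137), as were 4.97% of all genes of the chromosome. On all autosomes 18% were higher and 15.5% lower. The values of Daxx ran from -0.36 in A382 to -0.096 in A394, and its mean no longer reached the size threshold without A382 (-0.20), with centring on the mode (-0.19) or after GC adjustment (-0.18). With a running median of 5 probes it was -0.0080 (adjusted p = 0.911). Kdm4b, a histone demethylase gene, was at 0.11 ± 0.14 and Tgif1, a transcriptional repressor gene, at 0.12 ± 0.19, and neither passed.

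Of 12 genes of nerve, myelin and matrix, 3 were higher, 1 was lower and 8 did not pass (median 0.040). Beside this, 23.9% of all genes of the chromosome were higher and 4.97% lower, and 18% and 15.5% on all autosomes. Notch3, a receptor of the Notch family, was above 0 in all tumours, with 0.18 in B96, a median of 0.33 and 0.73 in A18 (0.38 ± 0.18, adjusted p = 2.24e-05), and its surroundings were at 0.064. Its 2 probes gave 0.34 and 0.42. Tubb4a, a tubulin gene of myelinating glia in the brain, had 0.46 ± 0.32 on 1 probe of 28.3% GC, and Lama1, a laminin chain of basement membranes, 0.22 ± 0.25. Tnxb, the matrix glycoprotein tenascin-X, fell to -0.23 ± 0.27. Qk, an RNA-binding protein needed for myelination, was at -0.0062 ± 0.24. Mog, a myelin protein gene of the central nervous system, was at 0.18 ± 0.18 and passed when B86 was left out (0.20), and Ptprm, an adhesive receptor phosphatase gene, also at 0.18, passed without 231 Trig (0.21) or A202 (0.20). Runx2, of the growth list, was at 0.20 ± 0.15 and passed without 231 Trig (0.22), B86 (0.21), A382 (0.22) or B96 (0.21).

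Among the highest genes were AK196339 (0.77 ± 0.25), Treml1 (0.66 ± 0.33), a receptor gene of platelets, AK040904 (0.59 ± 0.20) and AK139254 (0.57 ± 0.23), each on a single probe and above 0 in 11 of 11 tumours. The AK196339 probe had 0.42 in A202, a median of 0.82 and 1.20 in A18, with surroundings at 0.011. Among the lowest were 9030025P20Rik (-0.75 ± 0.28), Gng13 (-0.57 ± 0.42), a G protein subunit gene, and Rps18 (-0.49 ± 0.40), a ribosomal protein gene. The 2 probes of 9030025P20Rik gave -0.61 and -0.89, and it was below 0 in 11 of 11 tumours. Epb41l3, a membrane skeleton gene, passed at -0.61 ± 0.56, but its probes disagreed, at -1.35 and 0.12.

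Beyond the level of the chromosome, 53 probe values of 18096 lay at least 1 log2 from the median of the other tumours, on 28 probes, and 42 of the 53 were in the 4 tumours of slide 1. On 14 probes this held for 2 or more tumours. These probes were picked by this distance after the values were seen, so they carry no test. No share over all autosomes stands beside these counts, so they do not show whether chromosome 17 is unusual in them. On 12 of the 14 the tumours concerned were all of the mixed background. Of the 11 tumours 7 were mixed, and on slide 1 these were A18, 231 Trig and A202, with 14, 9 and 14 of the 53 values. The 12 include the Arid1b probe, low in 231 Trig and high in A202, where it was not well above background. They also include the Pla2g7 probe, high in A202 and low in A394.

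In the H2 complex the same tumours recurred. At A_53_P115484 the ratio was -1.99 in A18, -1.77 in 231 Trig, -2.04 in A202 and -1.76 in A382, and 0.026 to 1.15 in the other 7 tumours. At A_53_P156922, further along, it was -1.19 in A18, -1.90 in A202 and -2.07 in A382, and 0.35 to 1.36 in the same 7 others. This probe was not well above background on the 231 Trig array, so no ratio is given there, and its reference channel was dim, at -1.23 relative to the array. The H2-T3 probe, of a non-classical class I gene, lay close to the first of these, and it was high in the same tumours, at 0.79, 0.43, 0.45 and 0.17, and also in A394 at 0.43. There the 4 C57BL/6J tumours had -0.95 in B86, -0.79 in B91, -1.17 in B96 and -0.77 in B76, and A390 and A292 had -0.30 and -0.82. The neighbouring AK153910 probe followed it, from 0.75 in A18 to -0.99 in B96. The median of the 10 probes around A_53_P115484, which include these 2, ran from -0.16 to 0.34 over the tumours. Both passages of A382 enter its average.

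Outside the H2 complex the set of tumours varied. The unnamed probe A_53_P105913, which starts at 22675442, was highest in the tumours that were high at H2-T3, with 0.45 in A18, 0.20 in A394, 0.094 in 231 Trig, 0.0019 in A382 and -0.063 in A202, and the other 6 ran from -1.10 to -0.48. A_53_P101324 had -3.88 in A18 and -3.36 in A202, and -0.56 to 0.66 in the other 9. Trerf1, a transcriptional regulator gene, was low in the same 2 tumours, at -0.85 and -1.24. Cdc42ep3 and AK018916 were low in A18, A202 and A390. The Epb41l3 probe was higher in these 3 tumours than in the others. It had 0.37 in A18, -0.23 in A202 and -0.18 in A390, beside -2.85 in B76 to -1.14 in 231 Trig. At the Cdc42ep3 probe these 3 tumours had -1.30, -1.13 and -0.29 and the others 0.57 to 1.48. Ift140, a gene of transport within cilia, had -0.11 in A18, -0.18 in 231 Trig and -0.027 in A382, and 0.28 to 1.81 in the others. At these 14 positions the median of the 10 neighbouring probes ran from -0.23 to 0.68 over the tumours.

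**Figure D5:**
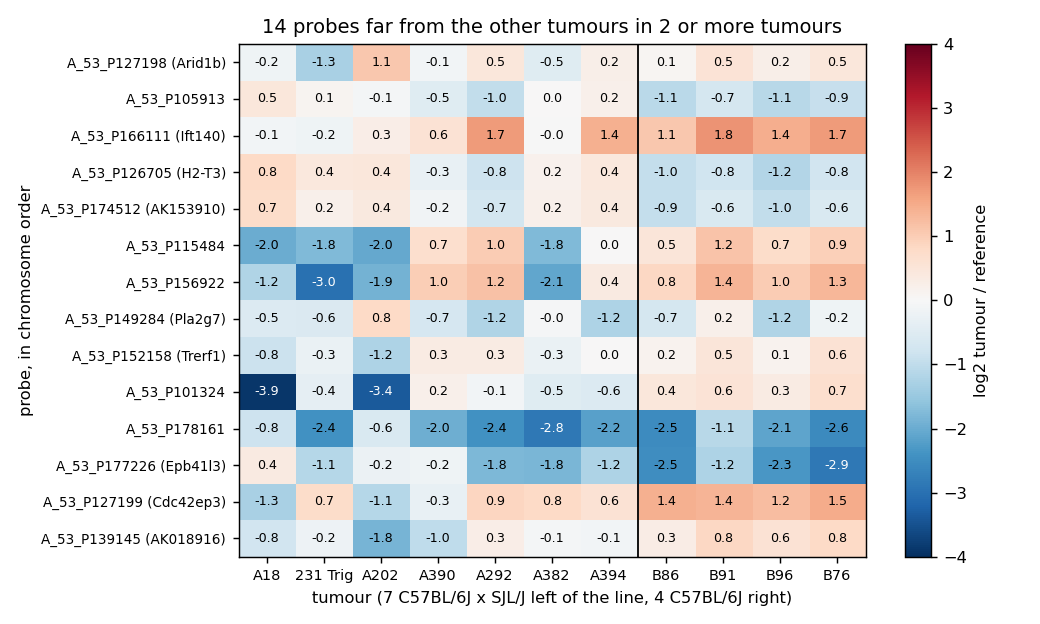
Log2 ratio of tumour over reference (colour and printed value) at 14 probes of chromosome 17, in chromosome order, in each of 11 tumours, with the C57BL/6J tumours right of the line. Blue blocks in A18, 231 Trig, A202 and A382 mark the 2 unnamed probes of the H2 complex, of which A_53_P156922 was not well above background in 231 Trig and the Arid1b probe was not in 231 Trig and A202, and A_53_P101324 is blue in A18 and A202.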

How the data were processed

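The 12 Agilent 2-colour arrays carried tumour DNA in Cy5 and reference DNA in Cy3, with no dye swap, per the labels. The ratios are log10 of tumour over reference, background-subtracted and dye-normalised within the array, per the file headers. Agilent Feature Extraction 9.5 and build mm9 are named in the submitters' processing notes. Channel levels and normexp used the intensity columns, as deposited by the authors. The channel levels were centred on the autosomal median and adjusted for probe GC content. Ratios were converted to log2, spots marked as non-uniform or as population outliers were set to missing, spots of a probe were averaged, and each array was centred on its autosomal median. The arrays of A382 were averaged. Of the 1653 member probes, 1636 were well above background on every array and 81 had a missing value on some array. Precision is limited by the number of arrays.

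RefSeq accessions, of which those of 28951 of 29337 probes matched, gave current gene names. No annotation of mm9 was used, so exons and introns are not given. Genes and windows (at least 3 probes) were tested over all autosomes with limma 3.58.1 (R 4.3.3), with Benjamini-Hochberg adjustment. Levels and parts were tested by exact permutation, whose smallest p was 0.000977 for 11 tumours against 0 and 0.00303 between backgrounds. Segments were fitted by penalised least squares (penalty of 40 noise variances, at least 5 probes, isolated values limited to 3 noise SD around a running median of 5). Scripts used Python 3.11.15, numpy 2.4.6, pandas 2.3.3, scipy 1.17.1 and matplotlib 3.10.9, and were tested on simulated data. Nothing in the labels says that tumours came from separate animals beyond their names, so p-values measure the spread between these samples.

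The members, lists and named genes were chosen with earlier results of these data known. Genes were named as the 6 highest and 6 lowest past the threshold with one sign in at least 9 of 11 tumours, up to 4 of each list by adjusted p, 14 genes whatever their values, and the genes at breaks. Further list members and the probes that differ between tumours were named after their values were seen. H2-K1 and C4b of the 14 were not among the member names. Alternatives changed the centring, background correction, GC content, spot filters, slide, passage, tumours used, smoothing, window size and segmentation settings. A few genes are not reported here.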

Additional observations from a re-analysis of the deposited data

Results flagged for a closer look

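One result stood out by an outlying sample. Gng13 in B86 had -1.70 among the C57BL/6J tumours, while the other 3 ran from -0.46 to -0.35. Of 111 groups looked at, 1 was marked (0.901%), and chance marks about 1 in 20 groups. Without B86 the mean of Gng13 was -0.45 and it stayed past the threshold. The gene has a single probe here, and B86 was on slide 1.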

How the results depend on the processing

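The differences between parts kept direction and call under all 18 alternatives for proximal minus middle (0.069 to 0.13, adjusted p 0.00293 to 0.0293) and distal minus middle (0.057 to 0.086, 0.00293 to 0.0234). Proximal minus distal ran from 0.010 to 0.041 and passed only without slide 1 (0.041). The level against the reference ran from 0.087 to 0.17 and never passed (0.0825 to 0.192). The proximal and distal parts passed with centring on the mode (0.17 and 0.15), and with each tumour left out in turn ran from 0.11 to 0.17 and from 0.098 to 0.15. The difference between backgrounds ran from -0.032 to 0.090 with each tumour left out, and within slide 2 it was -0.15. Genes past the threshold numbered 250, and 142 with a running median of 5 probes, under which H2-Eb2 (0.17), Tap1 (0.032), Epb41l3 (0.098) and Atp6v1g2 (-0.079) changed sign. By construction that setting replaces a single probe by its neighbours. The other alternatives gave 213 to 360 genes. Windows past the threshold numbered 32, 49 without slide 1, and 19 to 45 with each tumour left out. Breaks numbered 14, and 46 and 2 at penalties of 20 and 80 and 8 after GC adjustment, an alternative chosen after seeing the data. The cause of these changes was not tested. Between backgrounds no window passed under any alternative. H2-T3 (1.25) and AK153910 (1.09) differed when A292 was left out and AK018916 (-1.42) with normexp, all by limma (adjusted p 0.0157, 0.0157 and 0.0496). Of 1029 values of 49 named genes under alternatives, 975 were counted as unchanged, 17 lost and 33 gained the call, and 4 of genes with a call changed sign. A gene without a call in both settings was counted as unchanged whatever its sign. Vegfa, for example, ran from -0.19 to 0.078 and Qk from -0.037 to 0.12.

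Tumours could not be paired between backgrounds, because the replicate numbers only follow the order of deposit. Only the parts of the chromosome were compared in pairs, within each tumour. Slide 1 had more missing values and a wider spread between neighbouring probes. No reference-only array or dye swap exists here, so an offset shared by all arrays, of dye or reference, cannot be told apart from a shared change, and fewer cells with a gain cannot be told apart from a smaller gain per cell.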
